A study of Drosophila melanogaster with 6 samples.

Results

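Synaptic vesicle and active zone genes were described in the eye disc and antennal disc of Drosophila melanogaster larvae. The set is a list of 35 genes chosen by name for their role at the presynaptic terminal, among 17753 gene identifiers measured in every library. RNA of 6 samples was sequenced from yw;+;+ larvae in the third instar: 3 eye disc and 3 antennal disc libraries, with 30 discs in each. The discs were parted from each other by hand, and all libraries share the genotype, so the tissue is the compared factor. The imaginal discs are larval epithelial sacs, and this pair forms the adult eye, the antenna and much of the head capsule. Samples of a tissue are named biological replicates with no word on how larvae were grouped, so p-values measure the spread between these samples.

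At a synapse, vesicles filled with transmitter dock at the active zone, a protein scaffold of the presynaptic membrane. SNARE proteins of the vesicle and of the membrane then zip together when a synaptotagmin senses calcium, and the vesicle membrane is later retrieved by endocytosis. In the larval eye disc, photoreceptor neurons arise behind the morphogenetic furrow and send axons to the brain, while their synapses in the optic lobe form later, in the pupa. Several of the same proteins, such as dynamin and the Sec1 family protein Rop, also serve membrane traffic in cells that are not neurons.

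Of the 35 genes, 34 passed the filter on low counts and 20 of these were higher in eye disc, where 14.6% of all 9901 tested genes were higher. None was called higher in antennal disc, where 11.7% of all tested genes were (edgeR quasi-likelihood test at a Benjamini-Hochberg adjusted p under 0.05). Csp alone reached an unadjusted p under 0.05 toward antennal disc, and DESeq2 called that 1 gene there, where it called 13.6% of its genes. The median log2 fold change of the 34 genes, eye disc over antennal disc, was 2.54, against 0.00 over all tested genes. With no filter on counts, the same 20 of the 35 genes were called, against 9.87% of the genes in that fit. Most of the called differences were large: 14 of the 20 were at least 8-fold, and Snap25 and Dap160 differed by less than 2-fold. Of all 1449 genes called higher in eye disc, 385 differed by at least 8-fold, which is 3.89% of the 9901 tested genes. The 3 eye disc libraries all lay above the 3 antennal disc libraries for 23 members, and for 23.4% of all tested genes. The reverse held for Csp, and for 22.2% of all tested genes. In whole discs, fewer cells of a type and less RNA per cell cannot be told apart.

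**Figure D1:**
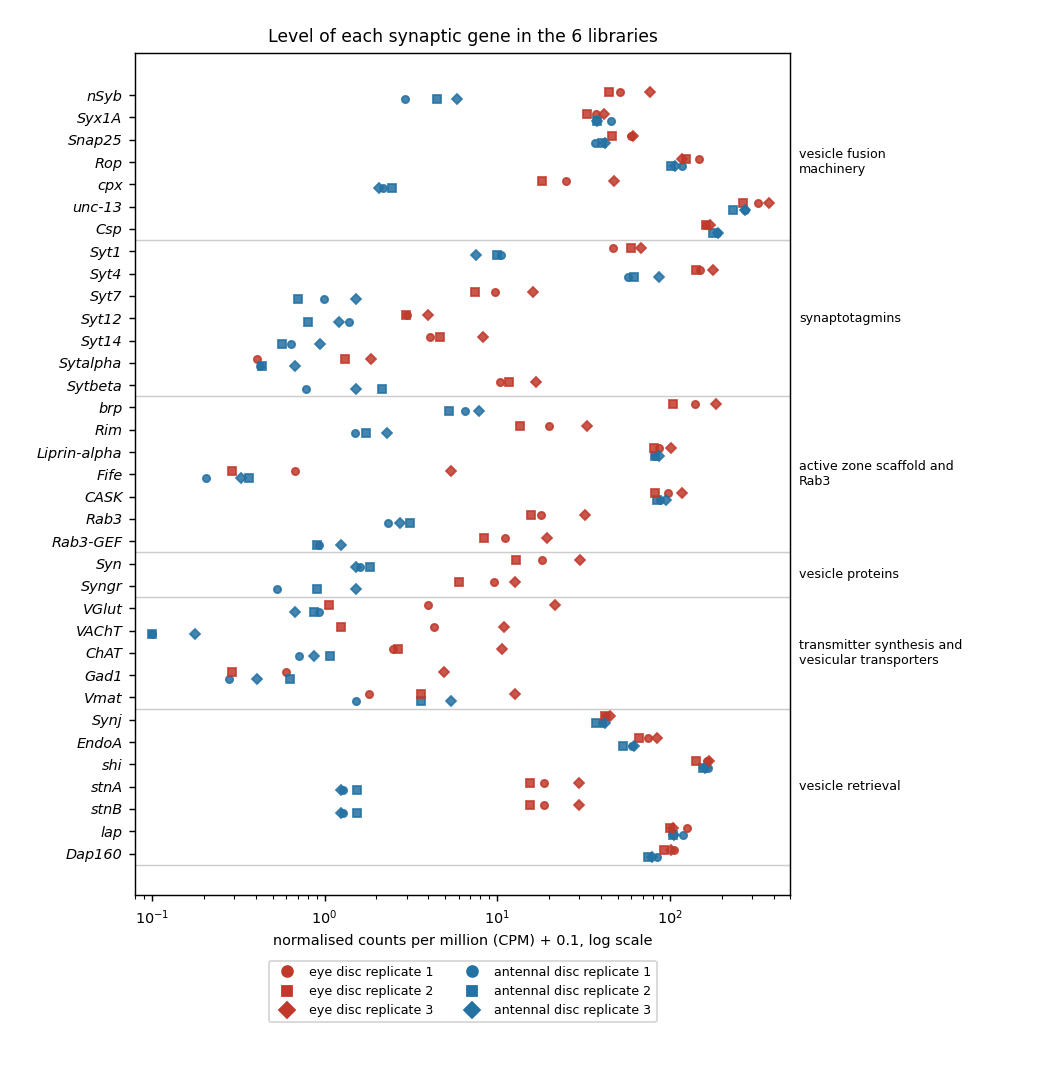
Normalised counts per-million (CPM, plus 0.1, log scale) of the 35 genes in each of the 6 libraries, grouped by role, with red for eye disc and blue for antennal disc. The groups stand apart for brp, nSyb, cpx and the stoned genes and lie on each other for Syx1A, shi and lap, and eye disc replicate 3 (diamonds) is far to the right for Fife, VGlut and Gad1.

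The libraries held 17583601 to 29093991 estimated counts, and 3 counts corresponded to 0.1 to 0.192 CPM, a floor that covers counting error only. Eye disc replicates 2 and 3 stood apart. The 6 salivary gland glue genes, a list added after the values were seen, summed to 88568 CPM in eye disc replicate 2 and to 424 to 1347 CPM in the other libraries. Brain neuropeptide genes, a 17-gene marker list, summed to 66.5 CPM in eye disc replicate 3, to 10.8 and 7.09 CPM in eye disc replicates 1 and 2, and to 1.90 to 5.25 CPM in antennal disc. All 16 of the detected ones were highest in replicate 3, and Lk was at 0 in every library. Markers of neurons (8 of 8 detected) summed to 974 to 1522 CPM in the eye disc libraries and to 111 to 130 CPM in those of antennal disc, and photoreceptor markers (6 of 6 detected) to 699 to 953 against 143 to 155 CPM. Much of the photoreceptor sum in antennal disc was held by ato and sens, at means of 62.2 and 18.3 CPM, or 77.5% and 82.6% of their eye disc level. In eye disc replicates 1, 2 and 3, pros was at 87.9, 56.9 and 267 CPM. Glia markers (7 of 7 detected) summed to 759 to 863 against 499 to 558 CPM, sums held mostly by Gli and nrv2. All 7 were higher in eye disc, with a median log2 fold change of 3.26, and repo, moody, gcm and alrm were in antennal disc at 10.5%, 5.44%, 8.51% and 3.77% of their eye disc level. Hemocyte markers (6 of 6 detected) summed to 515 to 682 against 266 to 361 CPM, with 5 of 6 higher in eye disc. Muscle and myoblast markers (8 of 8 detected) summed to 417 to 746 against 735 to 911 CPM, with twi (-3.63) and Mhc (-2.04) higher in antennal disc and sls (0.62) in eye disc. The part of these other cells in the results below was not tested, and results that rest on replicate 2 or 3 are given with and without it.

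The core fusion machinery was split. The vesicle SNARE nSyb (FBgn0013342, 3L, 1630348 to 1637752 in dm6), neuronal synaptobrevin, was at 51.4, 44.5 and 77.2 CPM in eye disc replicates 1, 2 and 3 and at 2.83, 4.38 and 5.75 CPM in antennal disc. The lowest eye disc library was thus far above the highest antennal disc library, with a log2 fold change of 3.74 ± 0.34 (SE, adjusted p = 0.000942). Complexin, cpx (FBgn0041605), which binds the assembled SNARE complex and clamps fusion, was at 25, 18.1 and 47.7 CPM in the eye disc libraries and at 2.08, 2.37 and 1.96 CPM in those of antennal disc. Its groups did not overlap either, and the log2 fold change was 3.82 ± 0.40 (adjusted p = 0.00146).

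The SNAREs of the target membrane did not share this pattern. Syx1A (FBgn0013343), syntaxin, was at 37.5, 33.0 and 41.3 CPM in the eye disc libraries and at 45.5, 37.8 and 38.0 CPM in those of antennal disc, ranges that overlap (log2 fold change -0.12 ± 0.11, adjusted p = 0.484). The span of Syx1A lies wholly within that of eIF4EHP on the same strand, which was at 68.5 ± 3.46 against 79.6 ± 5.51 CPM (SD, n = 3), so the split of reads between them is uncertain. Snap25 (FBgn0011288), its partner SNARE, was at 59.2, 46.3 and 61.3 CPM in the eye disc libraries and at 36.6, 40.5 and 41.8 CPM in those of antennal disc. The groups did not overlap, and the difference was small, with a log2 fold change of 0.49 ± 0.12 (adjusted p = 0.0265). Leaving out 1 library removed this call in 5 of 6 fits. Exons fill only 1.01% of the 225026-base span over which Snap25 reads were counted.

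Among the regulators of fusion other than cpx, none was called. Rop (FBgn0004574), the Sec1 family protein that binds syntaxin, was at 130 ± 15.3 CPM in the eye disc libraries and at 109 ± 8.91 CPM in those of antennal disc (log2 fold change 0.25, adjusted p = 0.118). The priming factor unc-13 (FBgn0025726) was at 322 ± 55.0 against 259 ± 24.1 CPM (log2 fold change 0.32, adjusted p = 0.141). Csp (FBgn0004179), cysteine string protein, a chaperone on the vesicle, was at 163, 163 and 170 CPM in the eye disc libraries and at 187, 177 and 189 CPM in those of antennal disc. Csp was the member whose antennal disc libraries all lay above the eye disc libraries, by a small margin (log2 fold change -0.16 ± 0.05, adjusted p = 0.0692). With the replicate number as a block, Rop and unc-13 were called higher in eye disc, and so was EndoA. That fit called 23 members, against 16.3% of all genes.

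Of the 7 synaptotagmins, 6 were higher in eye disc, by log2 fold changes from 1.19 to 3.50, where 14.6% of all tested genes were higher. Syt1 (FBgn0004242), the calcium sensor of fast release, was at 46.6, 59.5 and 68.2 CPM in the eye disc libraries and at 10.4, 9.83 and 7.48 CPM in those of antennal disc. The groups did not overlap, with a log2 fold change of 2.65 ± 0.19 (adjusted p = 0.000285). Syt4 (FBgn0028400), known in fly muscle for a signal sent back across the synapse, was the most abundant of the family per exon length and was at 150, 141 and 178 CPM in the eye disc libraries and at 57.4, 62.3 and 86.5 CPM in those of antennal disc. Its groups did not overlap, although its antennal disc level was well above the floor, and the log2 fold change was 1.19 ± 0.18 (adjusted p = 0.00517).

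The other synaptotagmins were at lower levels per exon length. Syt7 (FBgn0039900), a calcium sensor of slower responses in mammals, was at 11 ± 4.52 against 0.972 ± 0.414 CPM (log2 fold change 3.50 ± 0.45, adjusted p = 0.00256). Syt12 (FBgn0261085) was at 3.21 ± 0.566 against 1.03 ± 0.302 CPM (log2 fold change 1.63 ± 0.36, adjusted p = 0.0190), and lost its call without antennal disc replicate 2 or 3. Syt14 (FBgn0261086) was at 4.0, 4.54 and 8.19 CPM in the eye disc libraries and at 0.537, 0.468 and 0.844 CPM in those of antennal disc. The groups of Syt14 did not overlap, with a log2 fold change of 3.17 ± 0.44 (adjusted p = 0.00334), and its span overlaps that of Suv3 on the opposite strand, at 18.2 ± 1.05 against 21.6 ± 1.27 CPM. Counted as a sum with Suv3, the log2 fold change was 0.10 (adjusted p = 0.433).

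Sytbeta (FBgn0261090), at 10.3, 11.6 and 16.7 CPM in the eye disc libraries and at 0.681, 2.04 and 1.42 CPM in those of antennal disc, differed by 3.21 ± 0.44 on the log2 scale (adjusted p = 0.00321). Its long span holds a cluster of small genes that were high in eye disc replicate 2, such as CG12310 at 2400 CPM there and 17.1 to 65.3 CPM in the other libraries. Sytbeta was not highest in that library, and in the sum with its overlapping genes the call was lost (log2 fold change 4.41, adjusted p = 0.16). Sytalpha (FBgn0261089) was at 0.305, 1.21 and 1.76 CPM in the eye disc libraries and at 0.322, 0.334 and 0.575 CPM in those of antennal disc. Its ranges overlapped and it was not called (log2 fold change 1.40 ± 0.69, adjusted p = 0.181).

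The active zone scaffold held the largest fitted difference after VAChT. Bruchpilot, brp (FBgn0259246), the ELKS family protein that builds the electron-dense T-bar of the fly active zone, was at 140.4, 103.9 and 184.7 CPM in the eye disc libraries and at 6.45, 5.15 and 7.78 CPM in those of antennal disc. The tissues were widely separated in all libraries, with a log2 fold change of 4.47 ± 0.28 (adjusted p = 0.000244). The mean level of brp in antennal disc was 4.52% of that in eye disc. Rim (FBgn0053547), which ties vesicles and calcium channels to the scaffold, was at 20.0, 13.5 and 33.0 CPM in the eye disc libraries and at 1.40, 1.64 and 2.19 CPM in those of antennal disc. Its groups did not overlap, with a log2 fold change of 3.67 ± 0.39 (adjusted p = 0.00124).

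The small GTPase Rab3 (FBgn0005586), which sits on vesicles and binds Rim, was at 21.9 ± 9.05 against 2.63 ± 0.394 CPM (log2 fold change 3.06 ± 0.32, adjusted p = 0.00118). Its exchange factor Rab3-GEF (FBgn0030613) was at 12.9 ± 5.79 against 0.926 ± 0.195 CPM (log2 fold change 3.80 ± 0.39, adjusted p = 0.00100). Both of these Rab3 genes were thus higher in eye disc, as brp and Rim were. Liprin-alpha (FBgn0046704), a scaffold protein that acts early in active zone assembly, was at 86.3, 80.7 and 101 CPM in the eye disc libraries and at 82.0, 81.7 and 86.9 CPM in those of antennal disc, with overlapping ranges (log2 fold change 0.10 ± 0.09, adjusted p = 0.464). CASK (FBgn0013759), a membrane-associated guanylate kinase scaffold, was at 99.1 ± 18.2 against 89.0 ± 5.86 CPM (log2 fold change 0.16, adjusted p = 0.440).

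Fife (FBgn0264606), a relative of Piccolo and RIM, was the member that failed the filter on low counts. It was at 0.572, 0.192 and 5.32 CPM in the eye disc libraries and at 0.107, 0.267 and 0.230 CPM in those of antennal disc. Eye disc replicate 3 held 139 of the 157 eye disc counts, against 17 counts in all of antennal disc. The ranges of the tissues overlapped.

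**Figure D2:**
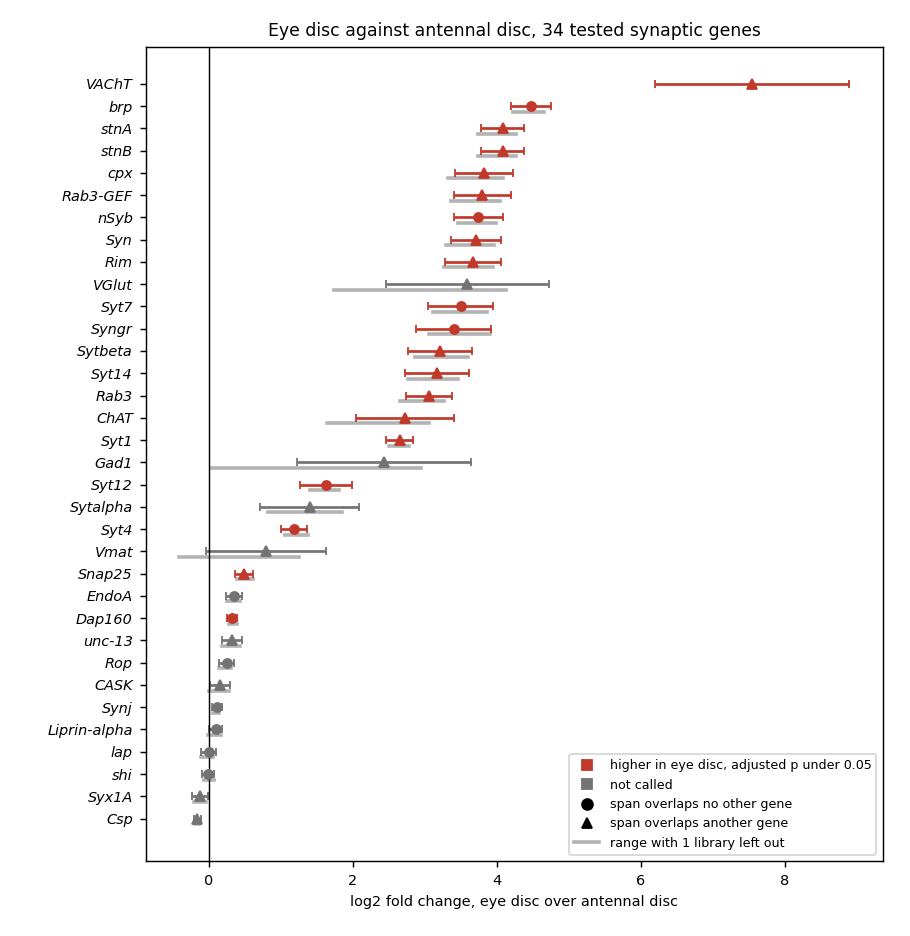
Log2 fold change of each of the 34 tested genes, eye disc over antennal disc, with the approximate SE as a bar and, in grey beneath, the range over the fits that left out 1 library (not drawn for VAChT, whose antennal disc level rests on 2 counts). The called genes from Syt4 at 1.19 upward lie above a group near 0 that holds Snap25 and Dap160, and the grey ranges are widest for VGlut, ChAT, Gad1 and Vmat.

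Both vesicle proteins of the list were higher in eye disc. Synapsin, Syn (FBgn0004575), which tethers vesicles in the reserve pool, was at 18, 12.8 and 30.3 CPM in the eye disc libraries and at 1.5, 1.74 and 1.42 CPM in those of antennal disc. The groups did not overlap, with a log2 fold change of 3.71 ± 0.35 (adjusted p = 0.000802). The gene Timp overlaps the Syn span on the opposite strand and had its higher mean in antennal disc, at 5.14 ± 3.68 against 18.2 ± 3.89 CPM (adjusted p = 0.0786), and the sum of both genes was not called (log2 fold change 0.37, adjusted p = 0.229). Synaptogyrin, Syngr (FBgn0033876), a membrane protein of the vesicle, was at 9.49, 5.94 and 12.6 CPM in the eye disc libraries and at 0.430, 0.802 and 1.42 CPM in those of antennal disc. Again the groups did not overlap, with a log2 fold change of 3.40 ± 0.52 (adjusted p = 0.00483).

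The genes that give a neuron its transmitter were at low levels per exon length, and eye disc replicate 3 decided much of their level. The vesicular glutamate transporter VGlut (FBgn0031424) was at 3.89, 0.958 and 21.4 CPM in the eye disc libraries and at 0.824, 0.769 and 0.575 CPM in those of antennal disc. Replicate 2 lay barely above the antennal disc libraries, and the log2 fold change of 3.59 ± 1.13 was not called (adjusted p = 0.0662). Without eye disc replicate 3 the log2 fold change was 1.74, and without eye disc replicate 2 VGlut was called. The deposited length of VGlut exceeds its annotated span, so what its reads were counted over is uncertain. Gad1 (FBgn0004516), which makes GABA, was at 0.495, 0.192 and 4.82 CPM in the eye disc libraries and at 0.179, 0.535 and 0.307 CPM in those of antennal disc. The ranges overlapped, and the log2 fold change of 2.43 ± 1.21 (adjusted p = 0.189) was 0.05 without eye disc replicate 3. CG14989, which overlaps Gad1 on the opposite strand, had the same order of eye disc libraries, at 3.96, 1.47 and 29.4 CPM. Vmat (FBgn0260964), the vesicular transporter of monoamines, was at 1.72, 3.51 and 12.6 CPM in the eye disc libraries and at 1.43, 3.51 and 5.33 CPM in those of antennal disc. Its ranges overlapped too, and the log2 fold change of 0.80 (adjusted p = 0.518) was -0.41 without eye disc replicate 3.

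The cholinergic locus was called. VAChT (FBgn0270928), the vesicular acetylcholine transporter, was at 4.19, 1.15 and 10.8 CPM in the eye disc libraries and at 0, 0 and 0.0767 CPM in those of antennal disc. These were 410 eye disc counts against 2 antennal disc counts, both in replicate 3, a ratio of 253 after scaling with an exact 95% counting interval of 69.6 to 2095. Such an interval covers counting error only and leaves out the spread between libraries. The fitted log2 fold change was 7.54 ± 1.35 (adjusted p = 0.00976) and 6.52 without eye disc replicate 3, and the counted ratio was then 128 (34.8 to 1070). Without antennal disc replicate 3, eye disc was at least 50.0-fold higher than the floor of 3 counts in the antennal disc library of highest floor.

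ChAT (FBgn0000303), which makes acetylcholine, shares its first exon with VAChT, whose span (3R, 18705501 to 18718916) lies wholly within that of ChAT (3R, 18705501 to 18732344). ChAT was at 2.40, 2.56 and 10.5 CPM in the eye disc libraries and at 0.609, 0.969 and 0.767 CPM in those of antennal disc. The groups did not overlap, and the log2 fold change was 2.72 ± 0.68 (adjusted p = 0.0299), with 1.64 without eye disc replicate 3 and a call lost without any 1 of the antennal disc libraries. Reads of the shared part cannot be assigned to either gene with certainty, and the sum of VAChT and ChAT differed by 3.70 ± 0.72 on the log2 scale (adjusted p = 0.0137). In the sum that also took in the other genes within the ChAT span, the call was lost (log2 fold change 1.29, adjusted p = 0.257).

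In the 5 transmitter genes, eye disc replicate 3 was at 4.04 to 14.00 times the mean of eye disc replicates 1 and 2, with a median of 4.82. The 18 called members of other roles had a median ratio of 1.69 (1.02 to 2.21), and the 11 tested members of other roles that were not called had 1.17 (0.87 to 2.32). The brain neuropeptide genes had 9.76, over the 15 with a ratio, neuron markers 1.45 (1.10 to 7.54) and photoreceptor markers 1.02. Over all tested genes the median was 0.984. In eye disc alone, replicate 3 was highest for 19 of the 20 called members and for 3223 of the 9901 tested genes. The share among all genes called higher in eye disc was not computed. By median, the transmitter genes thus lay between the neuropeptide genes and the other tested members in this library, while Gad1 at 14.0 lay above the neuropeptide median. Fife, which was not tested, had a ratio of 13.9. Without eye disc replicate 3, 18 members were called, against 12.4% of all genes in that fit, and the calls lost were Snap25 and Dap160. The median log2 fold change of the members was then 1.56. Without both eye disc replicates 2 and 3, a fit chosen after the values were seen that takes the lone eye disc library to vary like the antennal disc ones, 19 members were called against 10.8% of all genes. That fit lost Syt4, Syt12 and ChAT and gained Rop and VGlut. Without eye disc replicate 2 alone, 24 members were called against 14.5% of all genes, the 20 and also unc-13, Fife, VGlut and EndoA.

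Other settings gave like counts. DESeq2 called 23 members higher in eye disc, against 16.7% of the genes it tested, and a filter of 1 CPM in 3 libraries gave 21 against 15.4%. With RLE scaling the count was 20, against 14.6%. On the deposited TPM values, limma-trend called 15 members with log2(TPM + 1) and 17 with log2(TPM + 0.1), against 8.67% and 9.18% of all genes. On these scales 17 and 11 of the 20 called members moved by over 1.5 times, such as brp from 4.47 to 2.60, Rim from 3.67 to 0.89 and Syt7 from 3.50 to 0.74 with log2(TPM + 1). A pseudocount shrinks the log2 ratio of low values, and these fits also moved the median of all genes to -0.18 and -0.20. The share of each in these moves was not tested. Without eye disc replicate 1 the count was 19, against 13.8%. Without antennal disc replicates 1, 2 and 3 it was 18, 16 and 16, against 10.9%, 9.07% and 9.33%.

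**Figure D3:**
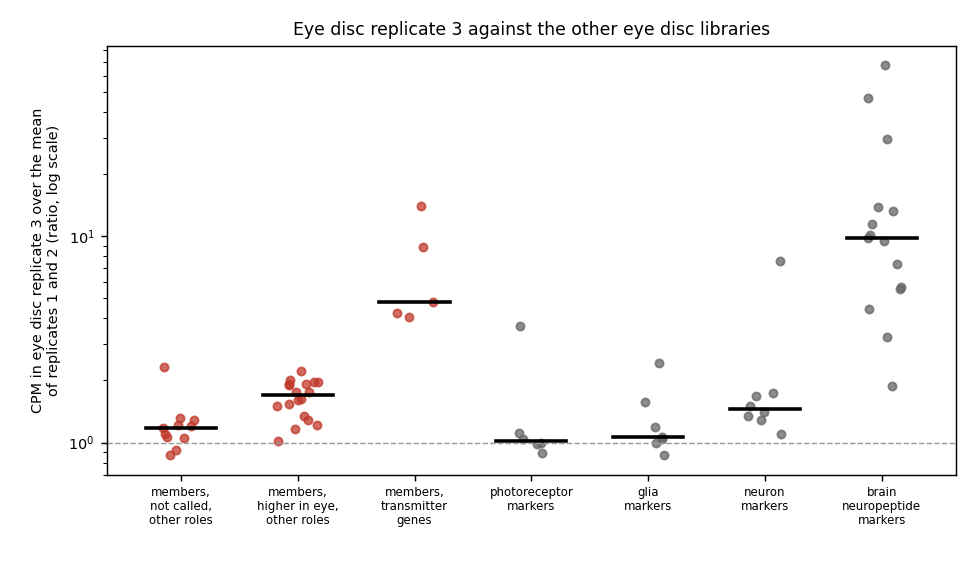
Ratio of the CPM in eye disc replicate 3 to the mean CPM of eye disc replicates 1 and 2 (log scale), 1 point per gene, with the median as a bar, for members by call and role (Fife, not tested, is left out) and for marker lists. The 5 transmitter genes have a median of 4.82 and the brain neuropeptide genes 9.76, while neuron, photoreceptor and glia markers centre on 1.45, 1.02 and 1.07.

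The genes of vesicle retrieval were split as the fusion genes were. The stoned locus stood out, with stnA (FBgn0016976) and stnB (FBgn0016975), proteins that act in vesicle endocytosis and are made from 1 shared transcript in the fly. Their spans are the same (X, 22980722 to 23004648) and their estimated counts were equal in 6 of 6 libraries, so they are 1 measurement, and the set holds 33 distinct tested measurements with 19 calls. This locus was at 18.7, 15.4 and 29.9 CPM in the eye disc libraries and at 1.18, 1.44 and 1.15 CPM in those of antennal disc for each listed gene. The groups did not overlap, with a log2 fold change of 4.08 ± 0.30 (adjusted p = 0.000276).

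Of the other retrieval genes, Dap160 alone was called. Dynamin, shi (FBgn0003392), which cuts the vesicle from the membrane, was at 165, 142 and 169 CPM in the eye disc libraries and at 166, 156 and 159 CPM in those of antennal disc, with overlapping ranges (log2 fold change -0.01 ± 0.08, adjusted p = 0.920). The clathrin adaptor lap (FBgn0086372), the fly AP180, was at 109 ± 13.4 against 110 ± 8.61 CPM (adjusted p = 0.994). Synaptojanin, Synj (FBgn0034691), a lipid phosphatase that uncoats vesicles, was at 43.2 ± 1.38 against 39.8 ± 2.40 CPM (log2 fold change 0.12, adjusted p = 0.245).

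Endophilin, EndoA (FBgn0038659), which bends membrane and recruits synaptojanin, was at 74.6, 66.1 and 84.3 CPM in the eye disc libraries and at 60.6, 53.5 and 62.3 CPM in those of antennal disc. All eye disc libraries were higher, yet the log2 fold change of 0.35 ± 0.11 missed the threshold (adjusted p = 0.0535). The intersectin homologue Dap160 (FBgn0023388), a scaffold that binds dynamin, was at 106, 92.4 and 101 CPM in the eye disc libraries and at 84.4, 74.5 and 78.9 CPM in those of antennal disc. Its groups did not overlap, and the small log2 fold change of 0.33 ± 0.07 was called (adjusted p = 0.0191), a call that 4 of the 6 fits without 1 library did not make.

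Per length, several genes that were not called, among them Csp, Rop and shi, were among the most abundant members. On the scale of CPM per kilobase of exon, Csp ranked first in eye disc at 53.7 ± 1.39 (SD, n = 3), followed by Syt4 at 50.3 ± 6.20 and Rop at 49.2 ± 5.81, neighbours that do not differ beyond their spread. Then came shi at 26.5 ± 2.44 and Snap25 at 24.4 ± 3.55. Of the genes with a large difference, nSyb reached 14.2 ± 4.23 and brp 10.7 ± 3.03 in eye disc, and 1.06 ± 0.359 and 0.483 ± 0.0986 in antennal disc. The lowest in eye disc were Sytalpha at 0.343 ± 0.231 and Fife at 0.210 ± 0.295. In antennal disc the order began with Csp, Rop, shi and Syt4 and ended with VAChT at 0.00360 ± 0.00624. These levels divide counts of whole gene spans by exon length, so reads from introns add to them.

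**Figure D4:**
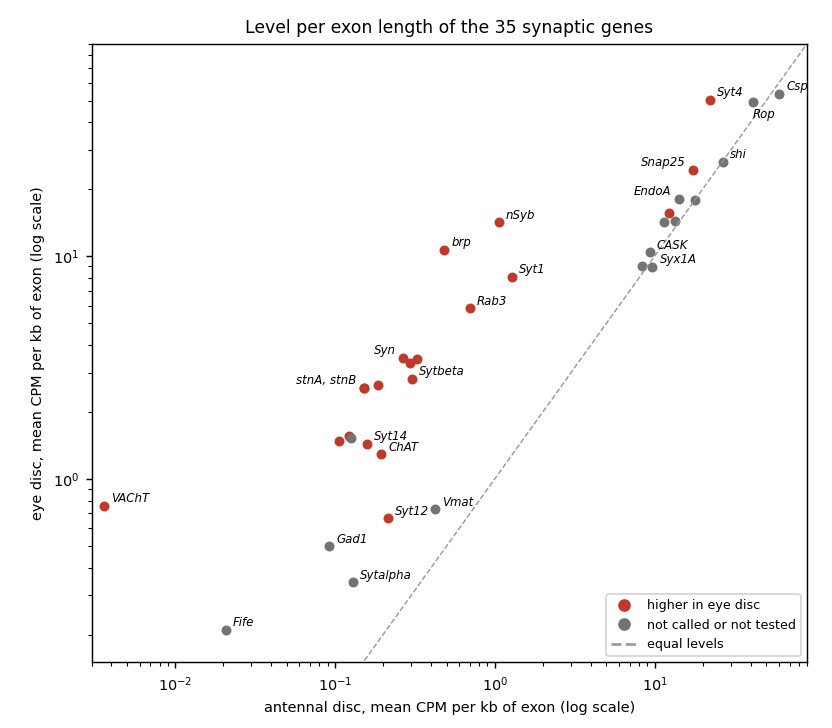
Mean CPM per kilobase of exon in antennal disc (x axis) and eye disc (y axis), both on log scales, for the 35 genes, with called genes in red and a dashed line of equal level; some points are left unnamed where names would overlap. Csp, Rop and shi lie near the line at the upper right, while brp and nSyb reach 10.7 and 14.2 in eye disc and lie far above it.

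Summed over the 20 called genes, the level was 726, 622 and 972 CPM in the eye disc libraries and 213, 215 and 247 CPM in those of antennal disc. The antennal disc sum was held mostly by Dap160, Syt4 and Snap25, at means of 79.3, 68.7 and 39.6 CPM there. The median of the antennal disc level was 9.15% of the eye disc level over the called genes, a description that their call fixes in direction, and 86.9% over the 14 that were not called. Over the neuron markers the median was 8.28%, from 4.96% for the neuronal amyloid precursor homologue Appl to 29.6% for Rbp9. Over the photoreceptor markers it was 14.0%, from 4.5% for the transcription factor gl to 82.6% for sens. Whether antennal disc reads came from neurons of that disc or from tissue carried over at the cut was not tested. Among the 13 tested members whose span overlaps no other gene, 7 were called, and among the 21 with an overlap 13 were. Of the called genes, 8 overlap a gene of at least 1 CPM in some library, and in sums with overlapping genes 16 members were called, against 14.6% of all genes, with 4 calls lost: those of Syt14, Sytbeta, Syn and ChAT. Rab3-GEF kept its call in the sum, at a log2 fold change of 3.06.

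The wider pathway was read from lists of other genes, to be set against the 14.6% of all tested genes that were higher in eye disc and the 11.7% that were higher in antennal disc. Of 15 tested partners of the active zone, 12 were higher in eye disc and none in antennal disc, with a median log2 fold change of 2.45. The neuroligins Nlg4 and Nlg3, adhesion proteins of the synaptic cleft, differed by 4.09 ± 0.54 and 3.93 ± 0.75, the calcium channel subunit stj by 3.63 ± 0.39, and the Rim binding protein Rbp by 3.56 ± 0.35 (edgeR quasi-likelihood test, adjusted p = 0.00279, 0.0114, 0.00127 and 0.000780). Nlg3 was at 3.32 without eye disc replicate 3, and with the replicate block Lar was called higher in eye disc too. Of 18 exocytosis partners, 6 passed as higher in eye disc and the remaining 12 in neither direction, with a median of 0.27, where 14.6% of all genes were higher in eye disc. With the replicate block, Vamp7 was also called higher in eye disc and Rab27 higher in antennal disc. On TPM, limma-trend called 3 of these partners higher in eye disc at either pseudocount. These 6 included the vesicle GTPase Rab26 at 4.20, the calcium sensor Frq2 at 3.00, rabphilin, Rph, at 2.76 and gammaSnap2, a SNARE recycling factor whose eye disc level was only 0.926 CPM, at 2.64. Frq2 was at 2.36 without eye disc replicate 3, and its call was lost without any 1 of the antennal disc libraries, and that of Nlg3 without antennal disc replicate 2.

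Most endocytosis partners, like shi and lap, passed in neither direction, 13 of 16, with a median of 0.01, while 2 passed as higher in eye disc and 1 passed toward antennal disc. These shares are not above the 14.6% and 11.7% of all genes. With the replicate block, Rab5 was also called higher in eye disc, and on TPM the eye disc count was 1. The exceptions were nwk, an F-BAR protein of nerve terminals, at 3.75 ± 0.48, the vesicle membrane protein fwe at 0.35 ± 0.06 and the chaperone Hsc70-4 at -0.26 ± 0.07, a call kept in 1 of the 6 fits without 1 library. Among 16 tested genes of transmitter synthesis and transport outside the members, of 21 listed, 5 were higher in eye disc, where 14.6% of all genes were. The count was 9 with DESeq2 and 3 without antennal disc replicate 3. Acetylcholinesterase, Ace, was at 91.5 ± 15.7 against 5.75 ± 1.41 CPM (log2 fold change 3.99 ± 0.22, adjusted p = 0.000129). VGAT, the vesicular GABA transporter, differed by 4.02 ± 1.10 (adjusted p = 0.0414) and, like the member Gad1, was high in eye disc replicate 3, at 7.39 CPM against 1.64 and 0.575 CPM, and its call was kept in 1 of the 6 fits without 1 library (log2 fold change 2.49, adjusted p = 0.0736, without eye disc replicate 3). Eaat2, a transporter of acidic amino acids, and the dopamine transporter DAT differed by 3.65 and 3.64, and the fifth call was CarT. Eaat2 was at 2.67 without eye disc replicate 3, and without antennal disc replicate 3 it was not called. Fly photoreceptors use histamine, and the gene of its synthesis, Hdc, given here although it was not called, was at 1.76 ± 1.20 against 1.58 ± 0.901 CPM (adjusted p = 0.869).

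Of 17 tested transmitter receptors, of 21 listed, 7 were higher in eye disc and 1, the muscle glutamate receptor subunit GluRIIA, was higher in antennal disc (log2 fold change -1.61 ± 0.38, adjusted p = 0.0234), a call kept in 1 of 6 fits without 1 library. Of all genes, 14.6% and 11.7% were called in these directions. The count of 7 rested on single libraries: it was 2, 2 and 3 without antennal disc replicates 1, 2 and 3, and 11 without eye disc replicate 2. It was 12 with DESeq2, 4 with a filter of 1 CPM in 3 libraries, 4 with limma-trend on log2(TPM + 1), and nAChRalpha4 was added with the replicate block. The histamine-gated chloride channel HisCl1 was at 9.09 ± 1.44 against 0.447 ± 0.238 CPM (log2 fold change 4.34 ± 0.45, adjusted p = 0.00104), at similar levels in the eye disc libraries. The nicotinic receptor subunits nAChRalpha1 and nAChRalpha2 (3.90 and 3.73) and the GABA receptor GABA-B-R1 (3.57) were highest in eye disc replicate 3, as the transmitter genes among the members were. Without that library they were at 2.38, 2.19 and 2.61, and each lost its call without antennal disc replicate 1 or 2 and the nicotinic subunits also without replicate 3. Of 6 genes of dense core vesicles, which carry peptides, 3 were higher in eye disc, where 14.6% of all genes were: the prohormone convertase amon at 3.82, the release factor Cadps at 3.22 and the amidating enzyme Pal2 at 2.50, which was at 1.63 without eye disc replicate 3 and was no longer called in fits without 1 antennal disc library.

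**Figure D5:**
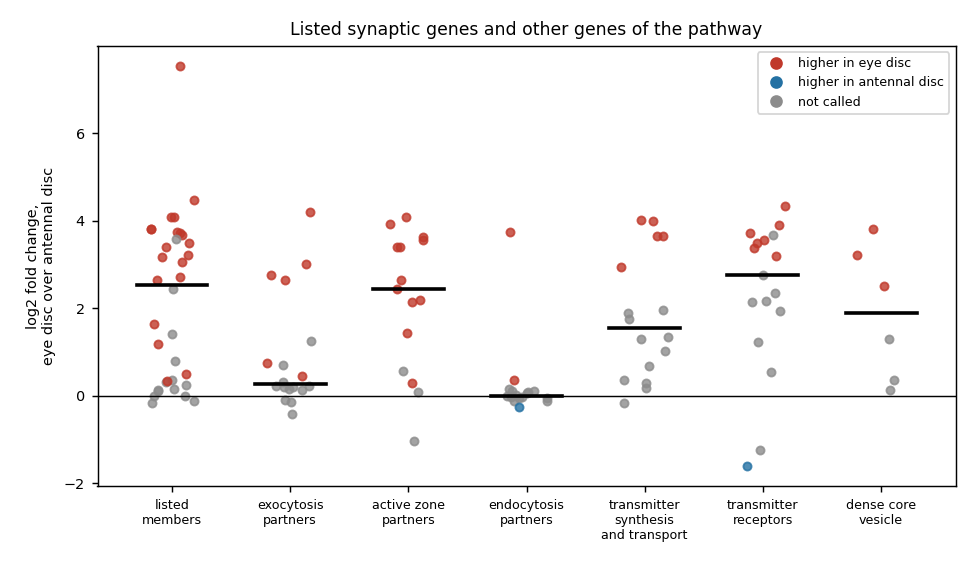
Log2 fold change, eye disc over antennal disc, of the 34 tested members and of the tested genes in 6 lists of partner genes, 1 point per gene, coloured by call, with the median as a bar. Active zone partners centre on 2.45, near the members at 2.54, and endocytosis partners on 0.01.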

How the data were processed

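Per the file headers, the authors deposited estimated counts and TPM per gene in the layout of kallisto. FastQC, kallisto, bedtools and dm6 are named in the submitters' processing notes, and the sources used here give no versions, strand setting or annotation release. Each listed length equals the whole gene span, introns included, for 99.3% of genes, so reads of overlapping spans can be shared out between genes. Deposited tables of genes per region, which hold none of the members, were not used.

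Estimated counts were rounded, filtered with filterByExpr, scaled by TMM and tested by the robust quasi-likelihood test of edgeR 4.0.16 without a block (R 4.3.3). P-values were adjusted over 9901 genes by Benjamini-Hochberg, with calls at 0.05. All adjusted p-values come from this test unless another is named. CPM uses TMM-scaled libraries. The SE is the absolute log2 fold change divided by the square root of F. Alternatives were RLE scaling, DESeq2 1.42.0, other count filters, a replicate block, limma 3.58.1 on log2 TPM, sums with overlapping genes, and fits without 1 library. Steps were tested on simulated counts.

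Same-numbered samples moved together around the tissue means (correlations 0.415, 0.308 and 0.242), so the numbers were taken to pair the samples on this check, not on the labels. The main test has no block, so its p-values and SEs leave this pairing out. The SE of brp, for example, was 0.28 in the main fit and 0.07 with the replicate block. Chi-square per degree of freedom within a tissue was 16.2 or more, so no library was a copy. Members and lists were chosen with earlier results of these data known. All members are named. Of each pathway list, up to 4 called genes with the largest absolute log2 fold change are named, with CarT and Hdc added after their values were seen. 1 listed symbol, Ca-beta, was not matched.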

Additional observations from a re-analysis of the deposited data

How the results depend on the processing

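The count of 20 members higher in eye disc was 20 with RLE scaling and with no count filter, 21 at 1 CPM in 3 libraries, 23 with DESeq2, 15 and 17 with limma-trend on log2(TPM + 1) and log2(TPM + 0.1), 16 in sums with overlapping genes, 19 without both eye disc replicates 2 and 3, and 16 to 24 without 1 library. With the replicate block it was 23, the 20 and also Rop, unc-13 and EndoA, and the block changed the call of no other member. Of the 20, 16 kept their call in all 6 fits that left out 1 library and 4 lost it in at least 1. DESeq2 called 1 member, Csp, higher in antennal disc. Over all genes, 858 and 909 were higher in eye disc with log2(TPM + 1) and log2(TPM + 0.1), and 919 to 1462 without 1 library. In antennal disc the counts were 344 and 339, 520 to 1117 without 1 library, and 569 without both eye disc replicates 2 and 3. The TPM fits moved the median log2 fold change of all genes to -0.18 and -0.20.

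No called member changed direction under these alternatives, but sizes moved by over 1.5 times for 17 and 11 of the 20 with log2(TPM + 1) and log2(TPM + 0.1), and for 6 in the sums. The sign of the log2 fold change turned for 7 members that were not called. Of these, lap and shi were well within their SE in the main fit, at -0.00 ± 0.10 and -0.01 ± 0.08, so their sign carries no direction. With log2(TPM + 1) and log2(TPM + 0.1), Liprin-alpha was at -0.12 and -0.12, CASK at -0.05 and -0.07, and Synj at -0.09 and -0.09. Without eye disc replicate 3, Liprin-alpha was at -0.01, CASK at -0.00, Vmat at -0.41 and lap at 0.02. Without eye disc replicate 2, shi was at 0.07 and lap at 0.06, and without antennal disc replicate 1 they were at 0.00 and 0.05. At 1 CPM in 3 libraries lap was at 0.01. Without both eye disc replicates 2 and 3, Sytalpha was at -0.42, Vmat at -1.0, shi at 0.04 and lap at 0.18. Over the fits without 1 library, Liprin-alpha ranged from -0.01 to 0.17, CASK from -0.00 to 0.28, Vmat from -0.41 to 1.26, shi from -0.07 to 0.07 and lap from -0.11 to 0.06. The cause was not tested. Fife, Gad1, Sytalpha and the antennal disc level of VAChT rest on few counts. Eye disc replicate 3 held 139 of the 157 eye disc counts of Fife and 126 of the 142 of Gad1.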
